A study of Mus musculus with 4 samples.

Results

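Claudins, connexins and zonula occludens scaffolds are groups of proteins by which neighbouring cells are joined. The members examined here were all array probes, controls aside, whose gene name is Cldn, Tjp, Gja, Gjb, Gjc, Gjd or Gje followed by a number. They came to 56 of 41174 probes and 43 of 27827 gene names, of which 21 were claudins, 19 connexins and 3 scaffolds. Claudins are membrane proteins that seal or gate the space between cells at tight junctions, and they are best known in epithelia and endothelia. Connexins assemble into rings that dock between cells to form gap junctions, the channels through which ions and small metabolites pass. The Tjp genes encode the ZO proteins, scaffolds that lie under the membrane at tight junctions and other contacts and tie them to actin. Fibroblasts are coupled by gap junctions, mainly of connexin 43, and are not known for building a tight junction barrier.

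Gene expression was compared between 2 Ip6k1+/+ and 2 Ip6k1-/- lines of mouse embryonic fibroblasts (MEFs), to ask which genes are altered when IP6K1, a kinase that makes inositol pyrophosphates, is lost. Each line came from 1 embryo at embryonic day 14 (E14), all embryos came from 1 cross of heterozygous mice, and all 4 lines had been immortalised with SV40 large T antigen. The lines were thawed, passaged, and harvested with trypsin during exponential growth. RNA of each line was hybridised to 1 single-colour Agilent array, and all 4 arrays shared a slide and a scan. A level is given as log2 of the background-corrected signal minus the 75th percentile of the array, so that 0 marks that percentile. Values are given for replicate 1 and then replicate 2 of a genotype, where the number only names a line. Levels of different probes depend on the probe and were not compared with each other.

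The 75th percentile of the signal lay between 607 and 746, and the share of probes well above background between 52.0% and 55.5%. On its probe A_51_P213766 Ip6k1 stood at 0.36 and 0.39 in Ip6k1+/+ MEFs and stayed below that threshold in Ip6k1-/- MEFs, at -6.88 and -6.80 (limma with Benjamini-Hochberg adjustment, adjusted p = 0.0347). Its probe with the highest mean, A_51_P103718, was well above background in every line. That probe read 2.46 and 2.61 in Ip6k1+/+ and -1.98 and -1.23 in Ip6k1-/- MEFs (limma adjusted p = 0.356). Both probes were lower in Ip6k1-/- MEFs, as the labels have it. Of 12 fibroblast markers, 11, all but Fap, passed the filter for testing, which asked for a probe well above background in both lines of 1 genotype or of both. Of 12 epithelial markers 5 passed it, and E-cadherin (Cdh1) and Krt14 were not well above background in any line. Xist was above background in replicate 1 of Ip6k1+/+ and in replicate 2 of Ip6k1-/- MEFs, and the Y-linked Eif2s3y in the other two lines, so lines that share a number differed in these sex-linked genes.

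Before the values, the sequences upstream of 4 connexin genes are shown, because 3 of them (Gja1, Gjb2 and Gjb5) belong to a group that moved together between lines and the other, Gja4, is a close neighbour of Gjb5 that moved less. Each is the 250 bases before the RefSeq start, read 5′ to 3′ along the gene's strand, from the GRCm38.p6 build at chr10:56377050-56377299 (plus strand) for Gja1, chr14:57104703-57104952 (minus) for Gjb2, chr4:127358165-127358414 (minus) for Gjb5 and chr4:127314040-127314289 (minus) for Gja4. Capitals mark matches on either strand to any of 5 searched motifs, the TATA box (TATAAA), the GC box (GGGCGG), the AP-1 site (TGANTCA), the TEAD site (CATTCC) and the AP-2 site (GCCNNNGGC).
Gja1: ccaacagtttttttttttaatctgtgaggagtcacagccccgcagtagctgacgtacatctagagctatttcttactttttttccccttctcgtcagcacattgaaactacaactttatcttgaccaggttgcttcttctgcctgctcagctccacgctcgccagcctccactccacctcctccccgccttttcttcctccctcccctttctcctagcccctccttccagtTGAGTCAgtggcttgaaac
Gjb2: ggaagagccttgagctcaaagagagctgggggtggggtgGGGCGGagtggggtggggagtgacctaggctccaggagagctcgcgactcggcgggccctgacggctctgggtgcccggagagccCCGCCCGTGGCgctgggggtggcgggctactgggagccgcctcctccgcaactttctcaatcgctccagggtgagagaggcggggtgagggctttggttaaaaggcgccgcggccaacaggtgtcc
Gjb5: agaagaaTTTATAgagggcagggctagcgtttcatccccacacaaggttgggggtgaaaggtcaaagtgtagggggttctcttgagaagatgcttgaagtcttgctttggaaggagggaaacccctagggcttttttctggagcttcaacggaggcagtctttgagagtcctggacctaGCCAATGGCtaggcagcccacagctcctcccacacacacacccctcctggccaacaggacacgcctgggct
Gja4: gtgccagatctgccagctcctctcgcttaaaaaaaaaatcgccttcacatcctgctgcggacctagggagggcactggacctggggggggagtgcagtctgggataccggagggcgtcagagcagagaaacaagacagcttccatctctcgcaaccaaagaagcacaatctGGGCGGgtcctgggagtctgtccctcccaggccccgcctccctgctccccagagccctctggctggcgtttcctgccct
The Gja1 sequence held 1 match, an AP-1 site 19 bases before the start, a motif found in 6.7% of the 32851 windows of this length in the table. Gjb2 held GC boxes beginning 211 and 126 bases before the start (32.7% of windows hold a GC box) and an AP-2 site at 124 (13.7% of windows), which overlaps the nearer GC box. In Gjb5 a TATA box on the opposite strand, printed as TTTATA, lay at 243 (12.4% of windows) and an AP-2 site at 71, while Gja4 held a GC box at 79. The TEAD motif, present in 12.6% of windows, was not among the letters of these 4. No motif was shared by all of Gja1, Gjb2 and Gjb5, and the matches are letters only, not sites shown to be bound.

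A signal from 18 of the 43 members was strong enough to test (41.9%), where 14334 of the 27827 gene names on the array (51.5%) were. The tested members included 10 of 19 connexins (52.6%) and 6 of 21 claudins (28.6%), and for 14 of the 18 all 4 lines were above background. A further 5 were above background in some lines only. Of these, Cldn10, Cldn13 and Cldn19 were read in Ip6k1+/+ replicate 1 alone, Gjb6 in Ip6k1-/- replicate 1 alone, and Gja3 in replicate 1 of both genotypes. The other 20 were not well above background in any line, among them the claudins Cldn1, Cldn2, Cldn4, Cldn5, Cldn6, Cldn8, Cldn11, Cldn16, Cldn17, Cldn18, Cldn22 and Cldn23, the connexins Gja6, Gja10, Gjd2, Gjd4 and Gje1, and the scaffold Tjp3. Cldn5, the main claudin of endothelium, and Cldn1 and Cldn4, which are widespread in epithelia, were thus below measurement here. Gje1 is the array's older name of the gene that RefSeq lists as Gjc3.

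**Figure D1:**
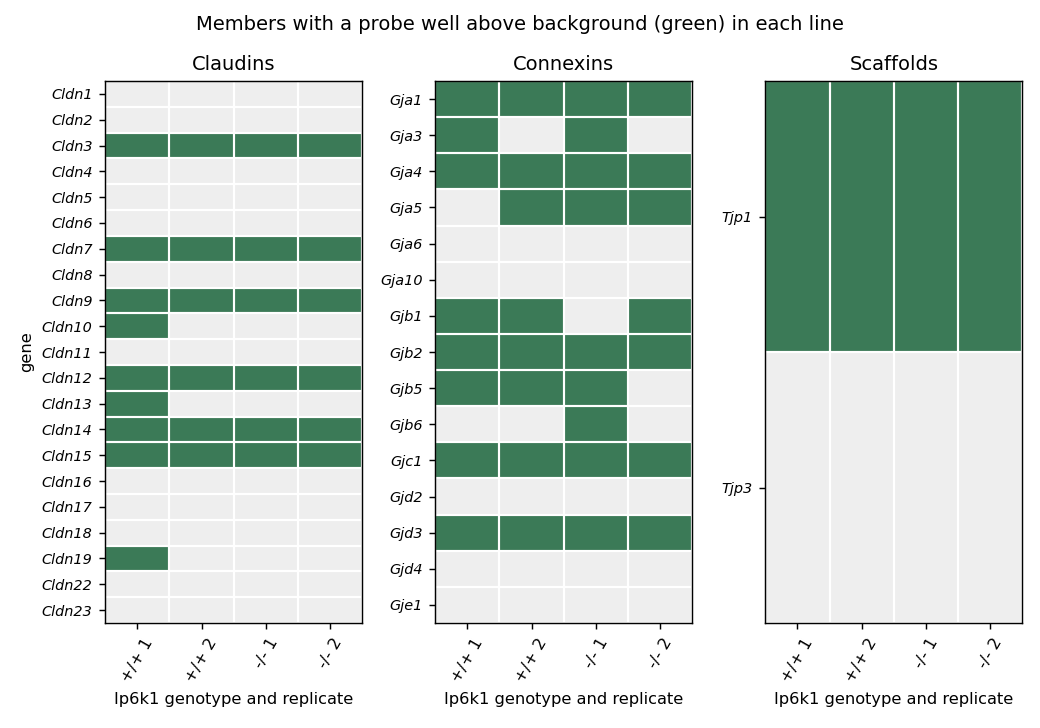
Detection of 38 members (rows, by family) in the 4 MEF lines (columns, Ip6k1 genotype and replicate), where green marks a line in which at least 1 probe of the gene was well above background and grey a line in which none was. The members seen in some lines only were Cldn10, Cldn13 and Cldn19 in Ip6k1+/+ replicate 1, Gjb6 in Ip6k1-/- replicate 1 and Gja3 in both, beside the tested connexins Gja5, Gjb1 and Gjb5 that were missed in 1 line.

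No member passed the genotype test across all genes, and in several connexins the lines of 1 genotype lay much further apart than the genotype means. By limma with Benjamini-Hochberg adjustment over 21572 probes, 0 of the 18 members passed an adjusted p of 0.05 (0.014% of 14334 tested gene names did), and each member probe had an adjusted p of at least 0.994. Gja5 alone had an unadjusted limma p below that level (0.0330), where 4.42% of all gene names did. By the fold cutoff, which asks for a mean difference of 1 or more on the log2 scale and for 0.9 or more between either Ip6k1-/- line and the Ip6k1+/+ mean, 2 members, Gja5 among them, were higher in Ip6k1-/- MEFs, where 1.49% of gene names were, and 0 were lower, where 2.5% were. The call of Gja5 rested on a probe that 1 of the 2 Ip6k1+/+ lines did not show well above background, and 0 members passed the cutoff when every line had to be above background. Taking for each gene its tested probe with the highest mean, 11 members (61.1%) had a higher mean in Ip6k1-/- MEFs and 7 a lower one, where 54.4% of all gene names had a higher one, and 14 members differed by less than 1. The median log2 difference was 0.07 over the 18 members and 0.04 over all gene names. In 6 members (33.3%) the genotypes did not overlap, close to the 31.1% of all gene names.

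**Figure D2:**
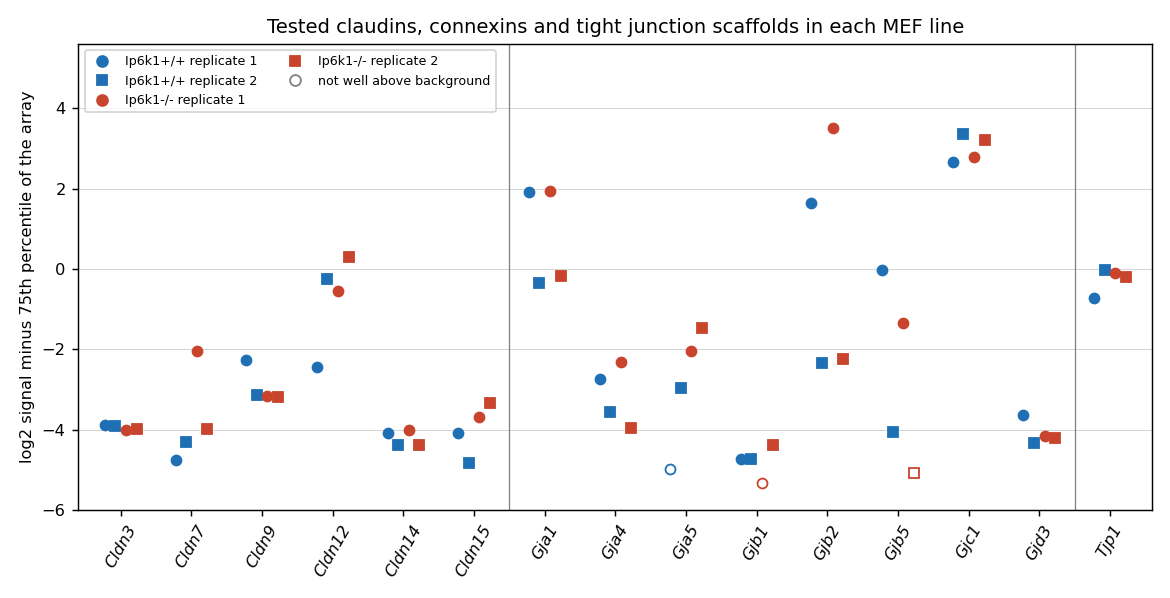
Level of 15 tested members, each by its tested probe with the highest mean, on the log2 scale relative to the 75th percentile of the array, in Ip6k1+/+ (blue) and Ip6k1-/- (red) lines, with circles for replicate 1, squares for replicate 2 and open symbols where the probe was not well above background. For Gja1, Gjb2 and Gjb5 the circles of both colours lie above the squares of both colours, while for Gjc1 all 4 values lie between 2.66 and 3.37.

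Among the connexins, 5 of the 10 tested genes were at least 2-fold higher in replicate 1 than in replicate 2 in both genotypes. In each of them the genotype means lay closer together than the lines did, with log2 differences from -1.16 (Gjb5) to 0.99 (Gjb2). Those differences had wide intervals, which do not show equal genotypes. Gja1, Gjb2 and Gjb5 were among these 5. Over all gene names 3.62% had this order of lines and 2.09% had the reverse, which 0 of the 18 members had. The order was noticed in these data, and it is given as a description without a test. No label separates the lines numbered 1 from those numbered 2 beyond the number, and what they share was not tested.

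Gja1 encodes connexin 43 (Cx43), the main gap junction protein of fibroblasts, and its probe lies at chr10:56109814-56109873 in the mm9 build that the files' headers name. Its level was 1.92 and -0.35 in Ip6k1+/+ MEFs and 1.93 and -0.17 in Ip6k1-/- MEFs. The lines numbered 1 were thus almost equal, and they lay 4.84-fold above replicate 2 in Ip6k1+/+ and 4.30-fold above it in Ip6k1-/- MEFs. Its probe is printed 10 times on each array, and the SD among the 10 spots was between 0.03 and 0.04 in every line, which is the reading error within an array and holds none of the spread between cultures. Between genotypes Gja1 differed by 0.10 (standard error 1.03, limma adjusted p = 0.997), with a 95% interval from -2.59 to 2.78.

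Gjb2 encodes Cx26, a channel of epidermis, liver and inner ear, and its probe lies at chr14:57717629-57717688. It stood at 1.64 and -2.34 in Ip6k1+/+ MEFs and at 3.51 and -2.25 in Ip6k1-/- MEFs, so that replicate 1 was 15.8-fold above replicate 2 in Ip6k1+/+ and 54.2-fold above it in Ip6k1-/- MEFs. This was the widest gap between lines of any tested member. The other Gjb2 probe, at chr14:57719067-57719126, had the same order, at -3.36 in replicate 1 of Ip6k1+/+ and -0.02 in replicate 1 of Ip6k1-/- MEFs, with both lines numbered 2 not well above background. On that probe replicate 1 was at least 3.51-fold higher in Ip6k1+/+ and at least 25.1-fold higher in Ip6k1-/- MEFs, where replicate 2 is taken at the dimmest signal its array still called well above background, or at the probe's own signal if that was higher. The genotype difference of the leading probe was 0.99 with a standard error of 2.28, and its 95% interval ran from -4.98 to 6.95.

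Gjb5 encodes Cx31.1, known for its part in the placenta, and lies near Gja4 on chromosome 4 (probe at chr4:127032665-127032724). Its level was -0.03 and -4.07 in Ip6k1+/+ and -1.34 and -5.08 in Ip6k1-/- lines, the last not well above background. Both lines numbered 1 lay above both lines numbered 2, and the genotypes overlapped. Replicate 1 exceeded replicate 2 by 16.4-fold in Ip6k1+/+ and by at least 10.1-fold in Ip6k1-/- MEFs. The genotype means differed by -1.16 (standard error 1.81), within the spread between lines. With a 95% interval from -5.89 to 3.58, the 4 lines could show neither a difference nor its absence.

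**Figure D3:**
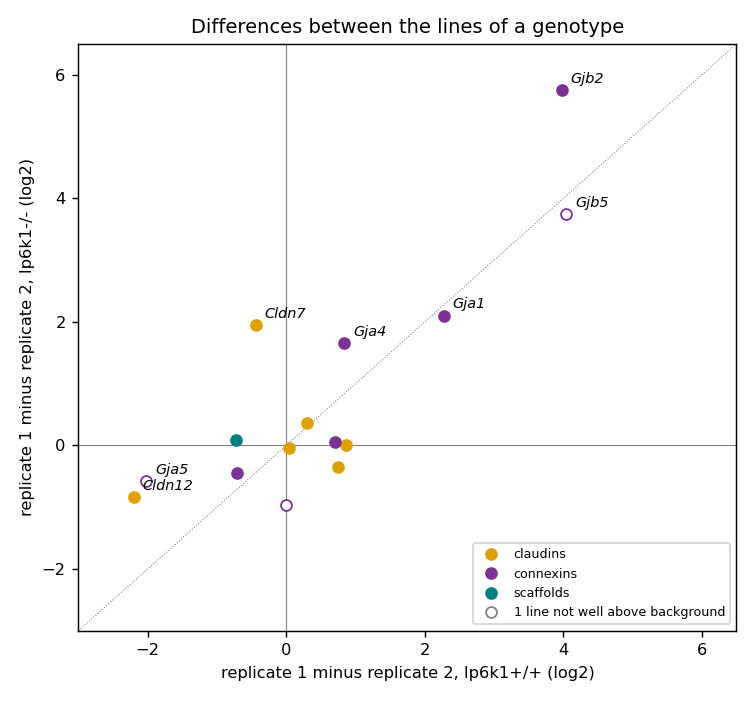
Replicate 1 minus replicate 2 on the log2 scale in Ip6k1+/+ (x axis) and Ip6k1-/- MEFs (y axis) for 15 tested members, coloured by family, with a dotted line where both differences are equal and names where either exceeds 1 in size. Gja1, Gjb2 and Gjb5 lie in the upper right, and open symbols have 1 line not well above background, so that the gap of Gjb5 in Ip6k1-/- MEFs is at least 3.34, while Cldn12 and Gja5 lie in the lower left.

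Other tested connexins were either flat or low. Gjc1, Cx45, had nearly equal means in the genotypes, at 2.66 and 3.37 in Ip6k1+/+ and 2.78 and 3.22 in Ip6k1-/- lines (chr11:102661053-102661112). Its difference of -0.01 (standard error 0.32) had a 95% interval from -0.86 to 0.84, and on its other probe the difference was 0.00. That interval leaves out a 2-fold change, but it rests on limma's standard error, which borrows spread from the other tested probes. The SD between its own lines was 0.50 in Ip6k1+/+ and 0.31 in Ip6k1-/- MEFs, and an interval from these lines alone was not computed. Its 2 lines of a genotype lay within 2-fold of each other. Gja4, Cx37 of endothelium and oocytes, was at -2.74 and -3.58 in Ip6k1+/+ and at -2.32 and -3.97 in Ip6k1-/- lines (chr4:126988848-126988907), which is 1.78-fold and 3.14-fold in the direction of Gjb5. Gjd3 lay between -4.33 and -3.63 in all 4 lines and differed by -0.20 (standard error 0.39). Gjb1, Cx32 of liver and myelin, lay between -4.73 and -4.38 in the 3 lines where it was above background and fell short of it in Ip6k1-/- replicate 1, with a difference of -0.13 (standard error 0.46). Over the 10 tested connexins, the median size of the difference between replicates was 2.15 in Ip6k1+/+ and 1.88 in Ip6k1-/- MEFs, against 0.35 and 0.31 over all gene names. The median size of their genotype difference was 0.28, against 0.23 over all gene names.

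Gja5, Cx40 of atrium and arterial endothelium, passed the fold cutoff, and its probes disagreed. On probe A_52_P496163 it measured -4.99, not well above background, and -2.96 in Ip6k1+/+ and -2.04 and -1.46 in Ip6k1-/- lines. Both Ip6k1-/- lines were higher than both Ip6k1+/+ lines, by 2.22 on average (standard error 0.75, limma adjusted p = 0.994). Without Ip6k1+/+ replicate 1, the line not well above background, the difference was 1.21. The 3 other Gja5 probes missed the background threshold in every line. A_52_P496163 was designed on a cDNA clone, and the files place it at chr3:98214966-98215025, which is 1358 kb from the probes drawn on the Gja5 region near chr3:96854968-96855027. The array's nearest probes to it are those of Phgdh, Zfp697 and Hsd3b4, and which transcript it reads was not tested. The second probe of the same clone, at chr3:98215672-98215731, was among those that missed the threshold.

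The tested genes beside the connexin clusters had this order of lines about as often as all genes did, 1 of 24 (4.17%) against 3.62%. The files place Gja4 and Gjb5 within 43.9 kb on chromosome 4 and Gja3, Gjb2 and Gjb6 within 89.5 kb on chromosome 14. Within 500 kb of the chromosome 4 cluster, 0 of 9 other tested gene names were at least 2-fold higher in replicate 1 in both genotypes. Around the chromosome 14 cluster 1 of 15 was, Il17d, a cytokine gene with levels of 2.55 and -0.57 in Ip6k1+/+ and 2.05 and 0.05 in Ip6k1-/- lines. Gja3, Cx46 of the lens, was above background in the lines numbered 1 only (probe A_52_P17582, -4.56 in Ip6k1+/+ and -3.28 in Ip6k1-/- lines), which is at least 1.52-fold and at least 2.63-fold over replicate 2. Gjb6, Cx30, was above background in Ip6k1-/- replicate 1 at -4.19 (probe A_52_P482251), at least 1.40-fold over replicate 2. The other probes of both genes missed the background threshold in every line.

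**Figure D4:**
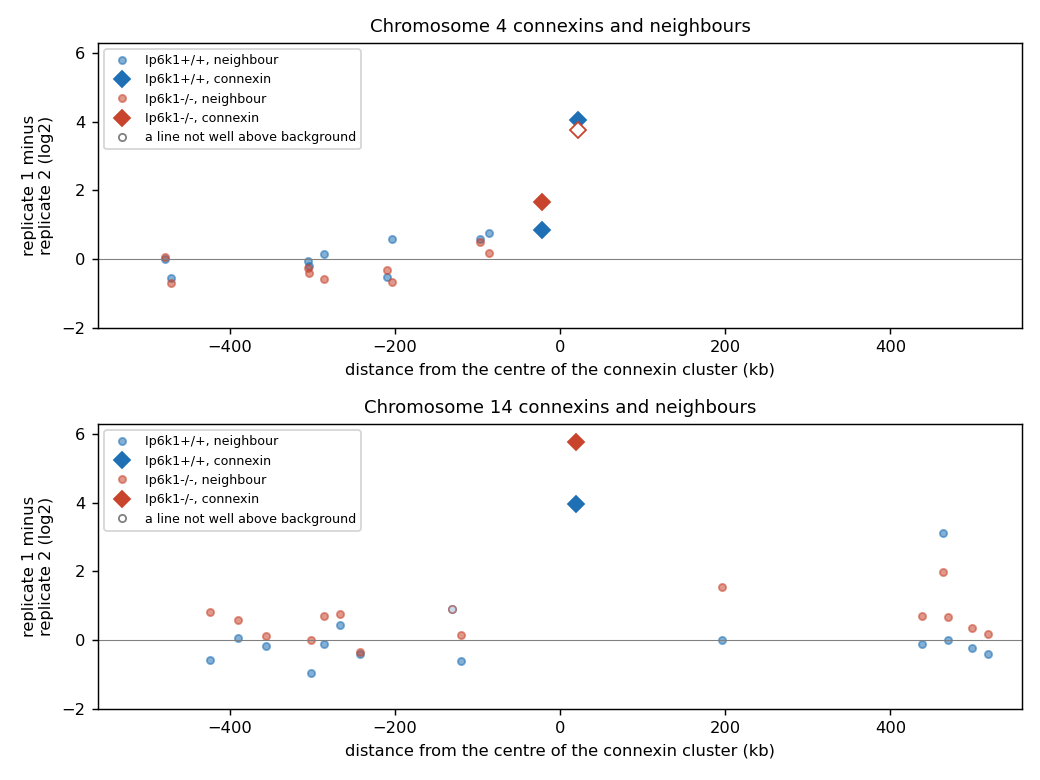
Replicate 1 minus replicate 2 on the log2 scale for tested genes within about 500 kb of the connexin clusters on chromosomes 4 (top) and 14 (bottom), against distance from the cluster's centre in kb, with diamonds for connexins, circles for other genes and open symbols where a line was not well above background, in Ip6k1+/+ (blue) and Ip6k1-/- (red) MEFs. The filled diamonds of Gjb2 and Gjb5 lie at 3.98 or more, the open one of Gjb5 stands for a gap of at least 3.34, and the circle pair above the rest at 464 kb in the lower panel is Il17d.

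Fibroblast markers and markers of other cell types were looked at beside these connexins, and some ran with their order of lines and some against it. Of 11 tested fibroblast markers 3 were at least 2-fold higher in replicate 1 of both genotypes, as the connexins were, and 1 was so in replicate 2. Over all gene names these shares were 3.62% and 2.09%. Lum, a proteoglycan of the matrix, read -1.45 and -4.97 in Ip6k1+/+ and -3.14 and -6.95 in Ip6k1-/- lines, the last not well above background. The growth factor receptor Pdgfra read 0.21 and -2.19 in Ip6k1+/+ and -1.08 and -2.33 in Ip6k1-/- lines, and Prrx1, a mesenchymal transcription factor, 3.69 and 2.67 in Ip6k1+/+ and 4.09 and 2.67 in Ip6k1-/- lines. Thy1 had the reverse order, at 1.42 and 6.02 in Ip6k1+/+ and 3.98 and 5.52 in Ip6k1-/- lines. The other tested fibroblast markers were Col1a1, Col1a2, Col3a1, Dcn, Pdgfrb, S100a4 and Vim. Of these Dcn and Pdgfrb passed the fold cutoff as lower in Ip6k1-/- MEFs, where 2.5% of all gene names did. The probes of 4 of the 11 were saturated, and without these the fibroblast markers summed to 121 and 157 times the 75th percentile in Ip6k1+/+ and 87.8 and 82.3 times in Ip6k1-/- lines. Col3a1, Thy1 and Pdgfrb made up most of that sum.

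Of 5 tested epithelial markers 2 had the reverse order and 0 that of the connexins, where 2.09% and 3.62% of all gene names did. P-cadherin (Cdh3) read -1.85 and 0.38 in Ip6k1+/+ and -2.02 and 0.82 in Ip6k1-/- lines, and Krt18 -0.65 and 1.57 in Ip6k1+/+ and -1.35 and 0.55 in Ip6k1-/- lines. Krt19 was higher in replicate 1 of Ip6k1+/+ (1.92 and 0.31) and in replicate 2 of Ip6k1-/- MEFs (1.90 and 2.35). Krt5 was at -4.40 and -4.93 in Ip6k1+/+ and not well above background in Ip6k1-/- lines. Rbm35b, at -3.74 and -4.11 in Ip6k1+/+ and -2.62 and -2.70 in Ip6k1-/- lines, passed the fold cutoff as higher in Ip6k1-/- MEFs, where 1.49% of all gene names did. Its other probe, A_52_P322301, was above background in every line and did not pass. There the difference was 0.72 (standard error 0.50) and the genotypes overlapped. Epcam and Krt8 were above background in Ip6k1+/+ replicate 2 alone, and Cdh1, Grhl2, Krt14, Prom2 and Rbm35a in no line. All 12 epithelial markers summed to 4.93 and 5.78 times the 75th percentile in Ip6k1+/+ and to 4.67 and 8.63 times in Ip6k1-/- lines. Such a sum weighs each probe by its signal, and Krt19, Krt18 and Cdh3 made up most of this one. The 6 neural and glial markers summed to 1.99 and 5.67 in Ip6k1+/+ and 1.81 and 7.56 in Ip6k1-/- lines. Both tested ones, Mbp and Tubb3, had the reverse order, and together they made up most of that sum. Of 6 endothelial markers only Kdr was tested, with Pecam1 and Cdh5 not well above background anywhere, and the sums ran from 0.10 to 0.39. Muscle markers were at background in every line (0 of 4), and Cd68 was the 1 tested of 3 blood markers. In bulk RNA fewer cells of a type and less RNA per cell cannot be told apart, and the part of these differences in the levels of the members was not tested.

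None of the 6 tested claudins passed the test between genotypes. Their mean was higher in Ip6k1-/- MEFs for 4 and lower for 2, where 54.4% of all gene names had a higher one. The median difference was 0.50 over these 6 claudins and 0.04 over all gene names. Cldn7, a claudin of many epithelia, was at -4.75 and -4.31 in Ip6k1+/+ and at -2.05 and -4.00 in Ip6k1-/- lines (chr11:69780780-69781089). The mean difference, 1.51 (standard error 0.72, limma adjusted p = 0.994), came largely from Ip6k1-/- replicate 1, the highest line. Without that line the difference was 0.53.

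Cldn12, which is also found outside epithelia, was at -2.45 and -0.25 in Ip6k1+/+ and at -0.55 and 0.29 in Ip6k1-/- lines (chr5:5505502-5505561). The lowest line was Ip6k1+/+ replicate 1 and the genotypes overlapped. Its difference was 1.22 (standard error 0.80), and without that line it was 0.12. Cldn15, a pore-forming claudin of the intestine, had both Ip6k1-/- lines (-3.68 and -3.34) above both Ip6k1+/+ lines (-4.08 and -4.83), at chr5:137451465-137451524. That difference was 0.95 (standard error 0.42, limma adjusted p = 0.994), with a 95% interval from -0.15 to 2.04. It kept its sign under every setting tried, from 0.57 to 1.32. Because the genotypes did not overlap, leaving out 1 line could not turn that sign.

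Cldn3, a sealing claudin of epithelia, was nearly the same in all lines, at -3.89 and -3.92 in Ip6k1+/+ and -4.02 and -3.99 in Ip6k1-/- MEFs, with a difference of -0.10 (standard error 0.32). Cldn14, needed in the inner ear, lay between -4.39 and -4.01 and differed by 0.05 (standard error 0.36). Both genes were read near the detection limit, as the dimmest signals called well above background lay between -5.19 and -4.67 on the 4 arrays. Cldn9 was at -2.28 and -3.14 in Ip6k1+/+ and at -3.18 in both Ip6k1-/- lines, a difference of -0.47 (standard error 0.41). Cldn10, Cldn13 and Cldn19 were read in Ip6k1+/+ replicate 1 alone, at -3.58, -3.51 and -3.70, each with a bound of at least 3.01-fold, 3.17-fold and 2.78-fold over Ip6k1+/+ replicate 2. A second Cldn19 probe was also above background only there, at -4.74.

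Among the scaffolds, Tjp1, which encodes ZO-1, was at -0.74 and -0.02 in Ip6k1+/+ and at -0.10 and -0.19 in Ip6k1-/- lines on its leading probe (chr7:72441703-72441762), a difference of 0.23 (standard error 0.33) with a 95% interval from -0.64 to 1.11. Its other probe, A_52_P60338, read -3.19 and -3.64 in Ip6k1+/+ and -3.52 and -4.07 in Ip6k1-/- lines and differed by -0.38 (standard error 0.39), so the sign was not settled.

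None of the genes of the same structures outside the 3 families passed the test after adjustment. Of 40 on the array, 28 were tested, 2 were above background in some lines only and 10 in none, and 0 passed limma's test with Benjamini-Hochberg adjustment. An unadjusted limma p below 0.05 was found for 3 (F11r, Lsr and Prkcz), 10.7% against 4.42% of all gene names. The fold cutoff was passed as higher by 2 (7.14% against 1.49%) and as lower by 1 (3.57% against 2.5%). Their median difference was 0.11. Among the tight junction membrane proteins 6 of 13 were tested and 1 passed the fold cutoff, Lsr, the lipolysis-stimulated receptor of contacts where 3 cells meet. Lsr was at -2.49 and -2.44 in Ip6k1+/+ and at 0.44 and -0.86 in Ip6k1-/- lines, which is 2.25 apart (standard error 0.50, limma adjusted p = 0.994), and every line was above background. F11r, which encodes JAM-A, was at 2.89 and 2.63 in Ip6k1+/+ and at 3.52 and 3.94 in Ip6k1-/- lines, which is 0.97 apart (standard error 0.24, limma adjusted p = 0.994) and just under the cutoff. Both genes were thus higher in both Ip6k1-/- lines. Occludin (Ocln) missed the background threshold in every line. Jam2 differed by -0.63 (standard error 0.52), with Ip6k1-/- replicate 1 not well above background, and Jam3 by -0.33 (standard error 0.28). A second probe of each was above background in 1 line only, Ip6k1-/- replicate 1 for Jam2 and Ip6k1+/+ replicate 2 for Jam3.

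Of the 23 adaptors and polarity proteins 19 were tested, and Prkcz, an atypical protein kinase C of the Par complex, passed the cutoff as higher. It did so on a probe too dim to call in Ip6k1+/+ replicate 1, and its leading probe differed by 0.39 (standard error 0.37). A further probe, A_52_P600822, was above background in every line, at -4.79 and -4.83 in Ip6k1+/+ and -3.68 and -3.98 in Ip6k1-/- lines, and differed by 0.99 (standard error 0.34, limma adjusted p = 0.994), just under the cutoff. Cingulin (Cgn) was above background in Ip6k1+/+ replicate 1 alone, at -2.02 on 1 of its probes. Tjap1 was at 1.26 and 1.56 in Ip6k1+/+ and at 1.67 and 1.83 in Ip6k1-/- lines, a difference of 0.34 (standard error 0.23).

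Among 4 pannexins and connexin partners 3 were tested. Panx1, which forms large single-membrane channels, was at 2.86 and 3.10 in Ip6k1+/+ and at 2.95 and 3.30 in Ip6k1-/- lines, a difference of 0.15 (standard error 0.22). Nov, a matricellular protein that binds Cx43, passed the cutoff as lower, at 0.26 and -2.56 in Ip6k1+/+ and at -2.31 and -4.65 in Ip6k1-/- lines, the last not well above background. Its difference was -2.33 (standard error 1.23, limma adjusted p = 0.994), and like Gja1 it was higher in replicate 1 of both genotypes, by 2.83 in Ip6k1+/+ and 2.34 in Ip6k1-/- MEFs.

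**Figure D5:**
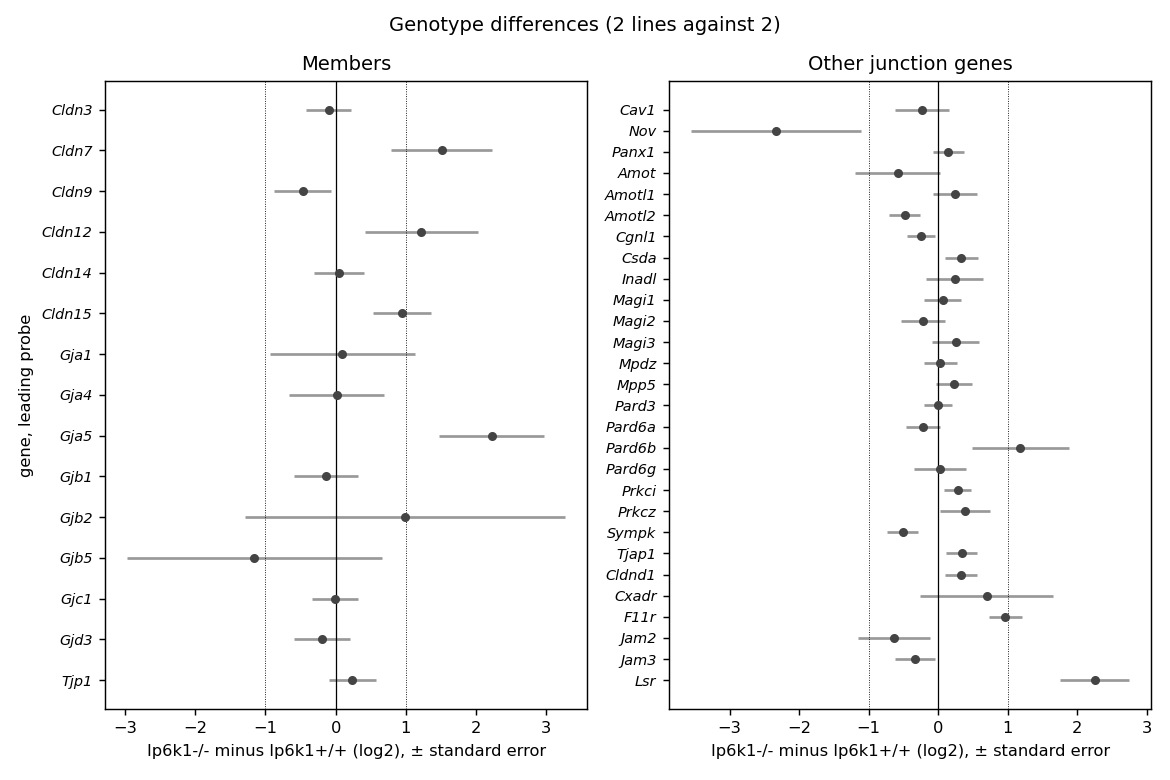
Mean log2 difference of Ip6k1-/- minus Ip6k1+/+ MEFs (points) with the standard error of limma's fit (bars) for 15 tested members (left) and the 28 other tested junction genes (right), each by its tested probe with the highest mean, with dotted lines at 1 and -1. The widest bars belong to Gjb2 and Gjb5, with standard errors of 2.28 and 1.81, while Lsr lies at 2.25 with a standard error of 0.50.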

How the data were processed

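RNA of 2 Ip6k1+/+ and 2 Ip6k1-/- MEF lines was measured on 1-colour Agilent arrays. The authors deposited spot intensities, made with Feature Extraction 10.5.1.1 (background-subtracted and detrended; mm9 coordinates, per the file headers), and log2 values that GeneSpring GX had shifted by the 75th percentile. The deposited log2 values differ from those computed here by 0.08 to 0.10 per array, with a median absolute deviation of 0.0025 around that offset, and their medians were -4.08, -4.04, -4.08 and -4.13, so their scale and direction are known and their genes are not centred.

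Here the processed signal was put on the log2 scale and reduced by its 75th percentile over spots that are neither controls nor flagged as outliers (43379 spots that are not controls per array, of which 96 to 133 were outliers). Spots of 1 probe were averaged, and saturated spots, of which members had 0, were kept. A probe was tested if it was well above background in both lines of either genotype (21572 probes, 14334 gene names). A gene counts once if any tested probe passes, and the tested probe with the highest mean leads. Genotypes were compared by lmFit and eBayes with a variance trend (limma 3.58.1 under R 4.3.3; p-values adjusted over all tested probes by Benjamini-Hochberg) and by the fold cutoff. The procedure was run on simulated arrays whose lines were drawn independently, so that run did not cover the likeness of lines that share a number. Precision is limited by the number of arrays, 2 per genotype. The standard errors, intervals and p-values of limma combine a probe's spread between these lines with that of all tested probes.

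The members and gene lists were chosen with earlier results of these data known. Genes named are Ip6k1, the members, other junction genes past the cutoff, Ocln, F11r, Jam2, Jam3, Cgn, Tjap1 and Panx1, and markers; Il17d was named after its values were seen, as were the array neighbours of the Gja5 probe. Accessions matched RefSeq (GRCm38.p6) for 52 of 56 member probes. Alternatives were normexp (offset 16), quantile and median normalisation, other filters, a floor on dim values, the deposited values, other fold rules and tests, fits with a replicate block, and fits that omit 1 array. Slide and scan gave no block, being common to all 4 arrays. Some members enter the counts, and their own values are not reported here.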

Additional observations from a re-analysis of the deposited data

How the results depend on the processing

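The count of members past limma at an adjusted p of 0.05 was 0 under every alternative run. An ordinary Student's t-test per probe gave 0 of 18 members before and after Benjamini-Hochberg adjustment (767 gene names before and 0 after). Members with an unadjusted p below 0.05 ranged from 0 to 4, and all gene names with one from 532 to 1489. The fold cutoff was less stable. Members past it as higher, 2 as reported, were 1 (Gja5) with normexp, with a floor on dim values, with 1 probe per gene and with the replicate block. They were 0 with probes above background in all 4 lines and 4 with the mean difference alone (Cldn7, Cldn12 and Gja5 among them). Over all gene names, 214 were higher as reported, 72 with normexp, 130 with the floor and 150 with 1 probe per gene. The replicate block gave 95, probes above background in all 4 lines 113, and the mean difference alone 359. Members past it as lower, 0 as reported, were 1 (Gjb5) with the replicate block and with the mean difference alone. Over all gene names, 358 were lower as reported, 313 with the replicate block and 750 with the mean difference alone. Counts past the cutoff with 1 line left out are not given, because 1 genotype then has only 1 line to meet it. For the test, a group left with 1 line was assumed to vary like the other.

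The median difference of the members ran from -0.13 (without Ip6k1+/+ replicate 2) to 0.74 (without Ip6k1-/- replicate 2). Signs of small differences turned for Gjc1 (0.041 with median centring), Cldn3 (0.027 with normexp) and Gjb1 (0.006 with normexp and 0.15 with the floor), and on leaving out 1 line the ranges were -0.37 to 0.34 for Gjc1, -3.18 to 0.86 for Gjb5, -0.13 to 0.59 for Tjp1, -0.13 to 0.23 for Cldn14, -0.62 to 0.35 for Gjb1, -0.81 to 0.84 for Gja4, -1.04 to 1.23 for Gja1, -1.89 to 3.86 for Gjb2 and -0.55 to 0.16 for Gjd3. Cldn7, Cldn9, Cldn12, Cldn15 and Gja5 kept their sign under each alternative run. For all of these but Cldn12 the genotypes did not overlap, so leaving out 1 line could not turn the sign. Other junction genes past the cutoff as higher, 2 as reported, were 1 (Lsr) with normexp, the stricter filter, the floor, 1 probe per gene and the replicate block, and 1 to 6 on leaving out 1 line (6 without Ip6k1-/- replicate 1). As lower, 1 as reported, they were 3 with no filter on dim probes and 0 with the stricter filter. Over all gene names, 358 were lower as reported, 880 with no filter on dim probes and 217 with the stricter filter. For changes that the alternative's own construction does not show, the cause was not tested.

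The replicate numbers name lines and were not shown to pair them. Replicate 1 minus replicate 2 correlated across the 21572 tested probes at 0.48 between genotypes, over 2 pairs. The replicate block raised the members with an unadjusted limma p below 0.05 from 1 to 4 of 18 and left 0 past the adjusted p. Over all 14334 tested gene names it raised that number too, from 634 to 1489, so the rise was not particular to the members. Signal over background limits the 25 members that were not tested.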
